A study of Homo sapiens with 6 samples.

Results

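The 10 genes described here encode the core of transforming growth factor beta (TGF-beta) signalling: the ligands TGFB1 and TGFB2, the latency protein LTBP1, the receptors TGFBR1, TGFBR2 and TGFBR3, the signal transducer SMAD3, the inhibitors SMAD7 and SKIL, and the secreted target TGFBI. They were chosen by name, and all 10 were found among the 62753 genes of the deposited table and passed the filter on low values. These 10 genes and the gene lists below were chosen with earlier results of these data known. The libraries are messenger RNA of cells labelled HepG2, a line from a human hepatocellular carcinoma, in 3 WT libraries and 3 sgPARP1 libraries. In sgPARP1 cells PARP1, which encodes an enzyme that senses DNA breaks, was knocked out with CRISPR-Cas9, and the labels name no drug or ligand treatment in either group. Whether the sgPARP1 cells are 1 clone or a pool is not stated, nor is it stated that replicates were grown apart, so the p-values below speak of the spread among these libraries alone, and that spread may be technical.

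TGF-beta is secreted in a latent form, folded with its own propeptide and tied to the matrix by a latent TGF-beta binding protein. Once released, the ligand brings the type II receptor TGFBR2 together with the type I receptor TGFBR1, which phosphorylates SMAD2 and SMAD3. These join SMAD4, enter the nucleus and switch target genes, among them genes for inhibitors such as SMAD7 that close the loop. In liver the pathway is known for its part in fibrosis and, in liver cancer cells, for growth arrest and for the shift towards a mesenchymal state.

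PARP1 itself was lower in all 3 sgPARP1 libraries, at 4.31, 4.23 and 4.39 FPKM against 31.8, 31.5 and 31.5 FPKM in WT (FPKM, a level scaled for gene length and sequencing depth). The libraries hold 14842498 to 17305129 reads in genes. Of 10 hepatocyte markers, 6 were listed at 0 in all 6 libraries, among them ALB, and no marker had more than 5 reads in a library. A listed 0 can be a failed estimate, since RPS9, a ribosomal protein gene that every cell uses, is also at 0 in all 6. The label HepG2 is thus not borne out by these markers, and the cells are called by their group names below. Markers of endothelial and immune cells were near 0, at sums of at most 0.386 and 0.161 FPKM in any library. The 8 fibroblast and stromal markers summed to 27.0 to 29.7 FPKM in WT and 19.2 to 21.7 FPKM in sgPARP1, with COL1A2 and PDGFRA at 0 throughout and COL3A1 at no more than 2 reads. Of the 4 tested, LUM fell from 9.15 to 1.04 FPKM and DCN fell from 1.07 to 0.296 FPKM. COL1A1 was at 15.1 and 15.9 FPKM and PDGFRB at 2.67 and 3.43 FPKM, neither of which passed in limma, the main test below. The part of these markers in the results below was not tested.

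The stretches just before the transcription start of 4 of the genes are printed because these genes hold the clearest change in each direction (TGFB1, TGFBI and LTBP1) or the classical feedback loop (SMAD7). They are the 250 bases before the RefSeq start nearest the deposited gene's 5′ end (GRCh38.p14), written 5′ to 3′ along the gene, and capitals mark AGAC or its reverse complement GTCT, the core SMAD-binding element.
TGFB1, - strand, chr19:41353923-41354172: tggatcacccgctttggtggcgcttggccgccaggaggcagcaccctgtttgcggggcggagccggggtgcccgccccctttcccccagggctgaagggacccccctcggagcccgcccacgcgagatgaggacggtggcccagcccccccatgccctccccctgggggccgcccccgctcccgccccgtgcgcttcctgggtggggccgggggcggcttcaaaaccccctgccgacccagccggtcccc
TGFBI, + strand, chr5:136028738-136028987: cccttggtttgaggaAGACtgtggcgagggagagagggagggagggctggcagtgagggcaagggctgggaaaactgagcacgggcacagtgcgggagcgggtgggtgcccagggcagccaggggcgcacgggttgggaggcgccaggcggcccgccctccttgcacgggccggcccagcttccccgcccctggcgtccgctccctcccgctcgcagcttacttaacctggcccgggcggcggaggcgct
LTBP1, + strand, chr2:32946703-32946952: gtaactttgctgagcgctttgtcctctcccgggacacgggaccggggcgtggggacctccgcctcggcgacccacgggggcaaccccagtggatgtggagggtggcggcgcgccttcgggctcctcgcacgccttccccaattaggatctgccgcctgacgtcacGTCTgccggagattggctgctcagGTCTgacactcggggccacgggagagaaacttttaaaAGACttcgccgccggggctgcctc
SMAD7, - strand, chr18:48950966-48951215: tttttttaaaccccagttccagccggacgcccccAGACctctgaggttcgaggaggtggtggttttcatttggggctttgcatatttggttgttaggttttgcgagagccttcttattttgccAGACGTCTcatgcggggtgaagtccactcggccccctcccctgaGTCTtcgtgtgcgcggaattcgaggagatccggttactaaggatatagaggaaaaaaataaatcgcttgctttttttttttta

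The core element AGAC was searched on both strands in the window from 250 bases before to 50 after each start. SMAD7 held 4 matches, including an AGAC followed directly by a GTCT, LTBP1 held 3, TGFBI held 1 and TGFB1 held 0. Of the 10 genes 8 had a match, against 84% of the 35116 promoter windows in the RefSeq table. The longer CAGAC, which contains AGAC, was found in 6 of 10 and 45.3% of all windows, and the GC-rich SMAD motif GGCGC in 7 of 10 and 48.6%. The AP-1 motif TGANTCA was found in 1 of 10, TGFBR2, and in 7.71% of all windows, and none of the 10 windows held GTCT followed directly by AGAC, which 0.202% of windows hold. For TGFBR3, SMAD3 and SKIL the RefSeq start used lay 20184, 1839 and 373 bases from the deposited 5′ end. Their windows may therefore not be the promoters of the deposited genes. A match describes the letters of a window and is no measured binding site.

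The question the groups address is how expression differs between sgPARP1 and WT cells. The labels name no control-guide group, so loss of PARP1 and the editing procedure itself cannot be told apart. In sgPARP1 cells the main ligand TGFB1, all 3 receptors and the target TGFBI were lower, while the latency protein LTBP1 and the transducer SMAD3 were higher. TGFB1 was lower by 41.4%, TGFBI by 36.8% and TGFBR1 by 33.9%, and LTBP1 was 1.91-fold higher. TGFB2, SMAD7 and SKIL did not pass the test. Thus 7 of the 10 genes passed, 2 higher and 5 lower, where 7.96% of the 13167 tested genes did, 3.52% higher and 4.44% lower (limma on log2(FPKM + 1), Benjamini-Hochberg adjusted p under 0.05 over all tested genes). The median log2 fold change was −0.22 over the 10 genes and 0.0029 over all tested genes. Leaving out any 1 WT library, or sgPARP1 replicate 1 or 3, lowered the count to 4, and leaving out sgPARP1 replicate 2 lowered it to 6. Testing genes of every level, with no filter, also left 4. The count over all tested genes fell too, from 1048 to between 412 and 652 without 1 library. With no filter that count was 587, there out of 28336 genes. TGFB1, TGFBI, TGFBR1 and LTBP1 passed under all 13 alternative settings, whereas the calls of TGFBR2, TGFBR3 and SMAD3 did not.

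**Figure D1:**
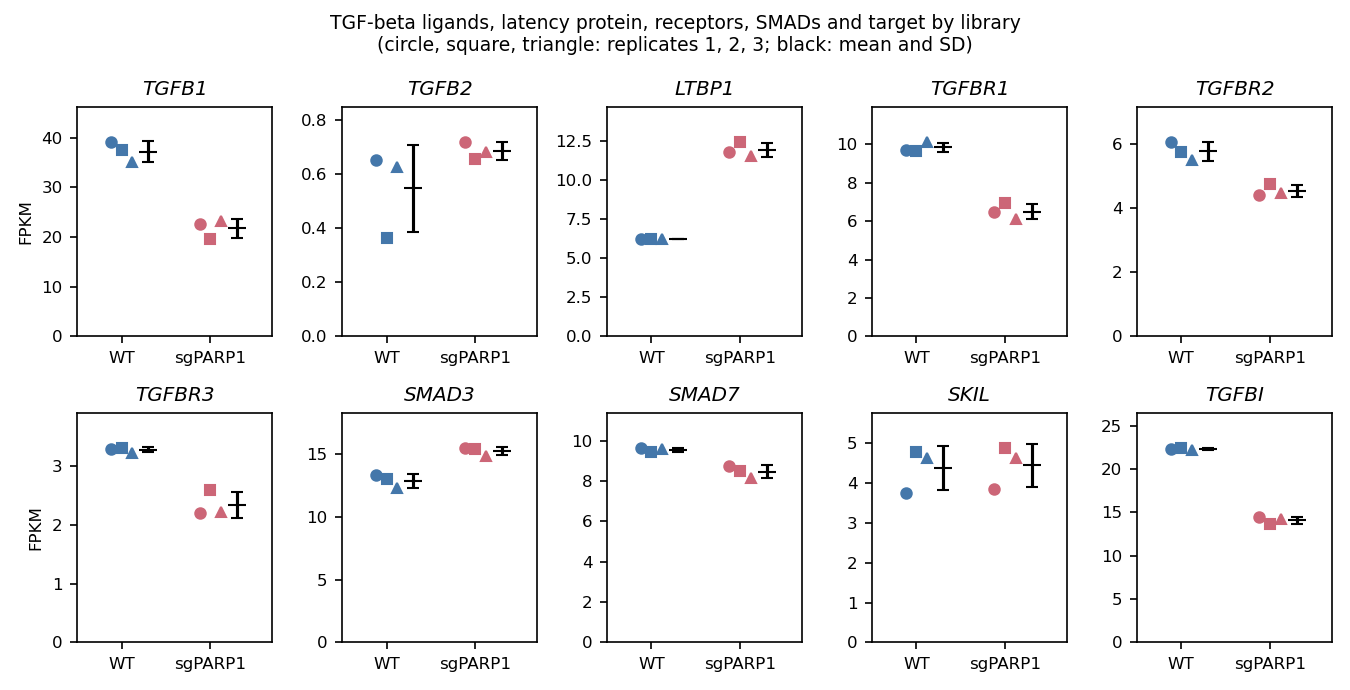
FPKM of each gene in each library, with WT in blue and sgPARP1 in red, symbols for the replicate numbers and the mean and SD in black (n = 3 per group, axes from 0). The groups do not overlap in 9 of the 10 panels, SKIL being the exception. Among all tested genes 31.1% do not overlap.

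TGFB1 encodes the ligand that gave the pathway its name and was the most abundant of the 10 genes. It stood at 39.1, 37.5 and 35.0 FPKM in the WT libraries and 22.6, 19.6 and 23.2 FPKM in the sgPARP1 libraries, from 987 to 2206 reads. Every sgPARP1 library lay well below every WT library. In RNA of whole cultures, as here, fewer cells that express a gene and less of its RNA per cell cannot be told apart. On the log2 scale the difference was −0.75 ± 0.072 (estimate ± SE, limma, adjusted p = 0.00223). TGFB1 (ENSG00000105329, minus strand of chromosome 19, 41301587 to 41353922 in hg38) shares its span with HNRNPUL1, CCDC97 and TMEM91 on the other strand, and whether counting used strand is not given in the sources used here. HNRNPUL1 was at 72.4 FPKM in WT and 74.6 FPKM in sgPARP1 and CCDC97 at 13.5 and 14.7 FPKM, and none of the 3 passed in limma or voom, CCDC97 being the 1 with an unadjusted p under 0.05 in limma. A long non-coding RNA gene on the same strand as TGFB1 also overlaps it. That gene was at 0.240 FPKM in WT and 0.125 FPKM in sgPARP1, with at most 14 reads in a library, and was not tested.

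TGFB2, a second ligand that needs the co-receptor TGFBR3 for high-affinity binding, was near the floor of detection. Its values were 0.651, 0.363 and 0.626 FPKM in WT and 0.718, 0.654 and 0.681 FPKM in sgPARP1, from 38 to 71 reads per library. WT replicate 2 was the lowest library, and the sgPARP1 values lay above all WT values by a narrow margin. The log2 fold change of 0.13 had a 95% interval from −0.13 to 0.39 (limma, adjusted p = 0.53). That interval holds both a fall and a rise. At such low levels the 1 added to each FPKM makes both the estimate and its interval too small. The ratio of mean FPKM was 1.25. With 0.1 added instead the log2 fold change was 0.31, and in voom on recovered reads it was 0.37, and neither passed. The third ligand, TGFB3, was at 0.844 FPKM in WT and 0.912 FPKM in sgPARP1 and did not pass.

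LTBP1, which binds latent TGF-beta and anchors it in the matrix, moved the other way. It was at 6.24, 6.27 and 6.24 FPKM in WT and at 11.8, 12.5 and 11.6 FPKM in sgPARP1. The WT libraries were nearly equal, with an SD of 0.013 FPKM, and every sgPARP1 library was far above them. The log2 fold change, 0.84 ± 0.044 (estimate ± SE, limma, adjusted p = 0.00021), was the largest absolute change among the 10 genes. Of its relatives, LTBP3 was at 5.97 FPKM in WT and 6.15 FPKM in sgPARP1, and LTBP4 was at 7.54 and 6.28 FPKM. Neither passed in limma, but LTBP4, at an adjusted p of 0.0931 there, passed in voom on recovered reads (adjusted p = 0.0288). LTBP1 made up 31.3% ± 0.69 of the summed FPKM of the 4 LTBP genes in WT and 48.6% ± 3.0 in sgPARP1 (mean ± SD, n = 3 each).

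Within each library, the ratio of LTBP1 to TGFB1 in FPKM was 0.159, 0.167 and 0.178 in WT and 0.522, 0.635 and 0.499 in sgPARP1. The groups were far apart on this ratio, since its parts moved in opposite directions. The summed FPKM of TGFB1, TGFB2 and TGFB3 was 38.6 ± 2.0 in WT and 23.4 ± 2.1 in sgPARP1, and TGFB1 supplied 96.4% ± 0.54 and 93.2% ± 0.33 of it. For each of these quantities p was 0.1 in an exact two-sided permutation test, the smallest that 3 against 3 libraries allow, or 0.114 after Benjamini-Hochberg adjustment over the 8 ratios, sums and shares computed.

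**Figure D2:**
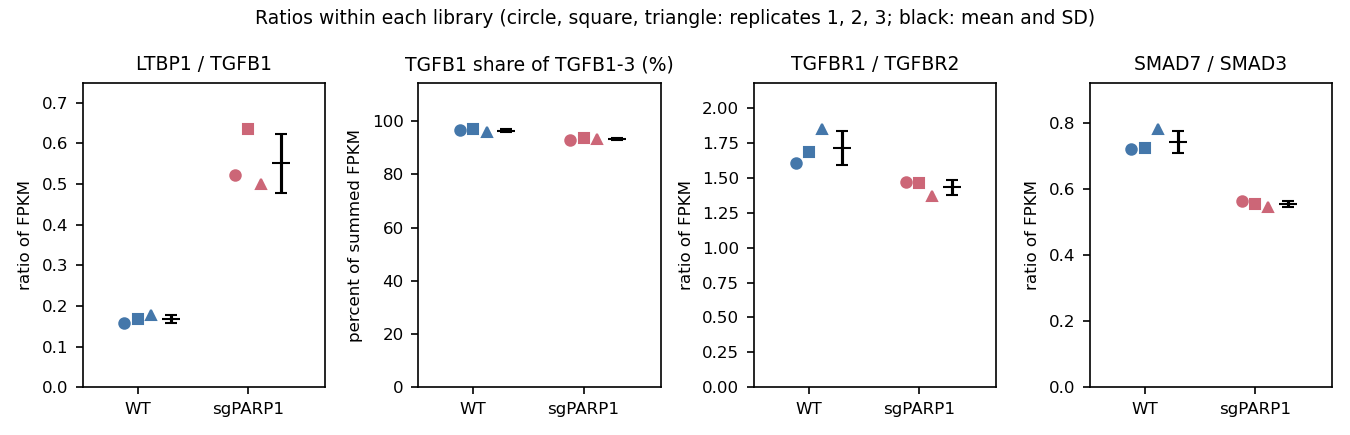
Ratios of FPKM within each library, and the share of TGFB1 in the summed FPKM of TGFB1, TGFB2 and TGFB3 in percent, by group, with mean and SD in black (n = 3 per group). The LTBP1 to TGFB1 ratio runs from 0.159 to 0.178 in WT and from 0.499 to 0.635 in sgPARP1.

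The 3 receptor genes were all lower in sgPARP1. TGFBR1, the type I receptor kinase that phosphorylates SMAD2 and SMAD3, was at 9.73, 9.67 and 10.1 FPKM in WT and 6.46, 6.93 and 6.12 FPKM in sgPARP1. The groups were separated by a gap wider than the range within either. Its log2 fold change of −0.53 (SE 0.054) passed the test (limma, adjusted p = 0.00271).

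TGFBR2, the type II receptor that binds the ligand first, was at 6.06, 5.75 and 5.49 FPKM in WT and 4.40, 4.75 and 4.47 FPKM in sgPARP1, lower by 21.3%. TGFBR3, also called betaglycan, a co-receptor that presents ligand to TGFBR2, was at 3.30, 3.31 and 3.23 FPKM in WT and 2.20, 2.59 and 2.22 FPKM in sgPARP1, lower by 28.8%. In both genes all sgPARP1 libraries were below all WT libraries, with sgPARP1 replicate 2 the nearest to WT. The log2 fold changes were −0.29 ± 0.055 for TGFBR2 (estimate ± SE, limma adjusted p = 0.0256) and −0.36 ± 0.065 for TGFBR3 (adjusted p = 0.0225). Both calls were kept without sgPARP1 replicate 2, at adjusted p = 0.0435 for TGFBR2 and 0.0212 for TGFBR3, and lost when any of the other 5 libraries was left out. For TGFBR2 the adjusted p was 0.077, 0.091 and 0.051 when WT replicate 1, 2 or 3 was left out, and 0.0994 and 0.0733 when sgPARP1 replicate 1 or 3 was. For TGFBR3 the same omissions gave 0.0734, 0.0859 and 0.0695 for WT replicates 1, 2 and 3 and 0.0877 and 0.0674 for sgPARP1 replicates 1 and 3. Testing genes of every level gave 0.0587 for TGFBR2 and 0.0651 for TGFBR3.

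The proportion of the type I to the type II receptor was lower in every sgPARP1 library. The ratio of TGFBR1 to TGFBR2 in FPKM was 1.60, 1.68 and 1.84 in WT and 1.47, 1.46 and 1.37 in sgPARP1, without overlap (exact two-sided permutation p = 0.1, the smallest possible; 0.114 adjusted). The ratio of TGFBR3 to TGFBR2 was 0.545, 0.576 and 0.588 in WT and 0.501, 0.545 and 0.497 in sgPARP1 (exact two-sided permutation p = 0.2, and 0.2 adjusted).

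SMAD3, the transducer that carries the signal to DNA, was at 13.3, 13.0 and 12.3 FPKM in WT and 15.5, 15.4 and 14.9 FPKM in sgPARP1. All sgPARP1 libraries were above all WT libraries. The mean was 18.3% higher, a log2 fold change of 0.23 ± 0.045 (estimate ± SE, limma, adjusted p = 0.0304). Leaving out any 1 library ended the call, with adjusted p = 0.0506, 0.0938 and 0.087 for WT replicates 1, 2 and 3 and 0.115, 0.079 and 0.0656 for sgPARP1 replicates 1, 2 and 3. Testing genes of every level gave 0.0551.

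SMAD7, which binds the activated type I receptor and blocks it, is itself induced by TGF-beta. Its promoter stretch above holds 4 matches to the core element. Of all windows 84% hold at least 1 match, the share that hold 4 or more was not counted, and binding was not measured. SMAD7 was at 9.64, 9.44 and 9.58 FPKM in WT and 8.76, 8.52 and 8.15 FPKM in sgPARP1. The sgPARP1 libraries were all below the WT libraries, but the difference did not pass over all genes: its log2 fold change of −0.16 (SE 0.044) had an adjusted p of 0.0822 in limma, and it did not pass under any of the 13 alternatives. The ratio of SMAD7 to SMAD3 in FPKM was 0.743 ± 0.034 in WT and 0.556 ± 0.0092 in sgPARP1 (mean ± SD, n = 3 each, exact two-sided permutation p = 0.1, the smallest possible; 0.114 adjusted).

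SKIL encodes SnoN, a nuclear repressor that holds SMAD complexes inactive. It was at 3.75, 4.78 and 4.63 FPKM in WT and 3.85, 4.88 and 4.63 FPKM in sgPARP1. The groups overlapped, and replicate 1 was the lowest library in both. The log2 fold change of 0.02 had a 95% interval from −0.23 to 0.26 (limma, adjusted p = 0.94).

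TGFBI, a secreted matrix protein first found as a TGF-beta-induced gene, was at 22.3, 22.4 and 22.2 FPKM in WT and 14.5, 13.7 and 14.2 FPKM in sgPARP1. The libraries of a group were close to each other and the groups far apart. Limma gave a log2 fold change of −0.63 ± 0.038 (estimate ± SE, adjusted p = 0.000379).

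**Figure D3:**
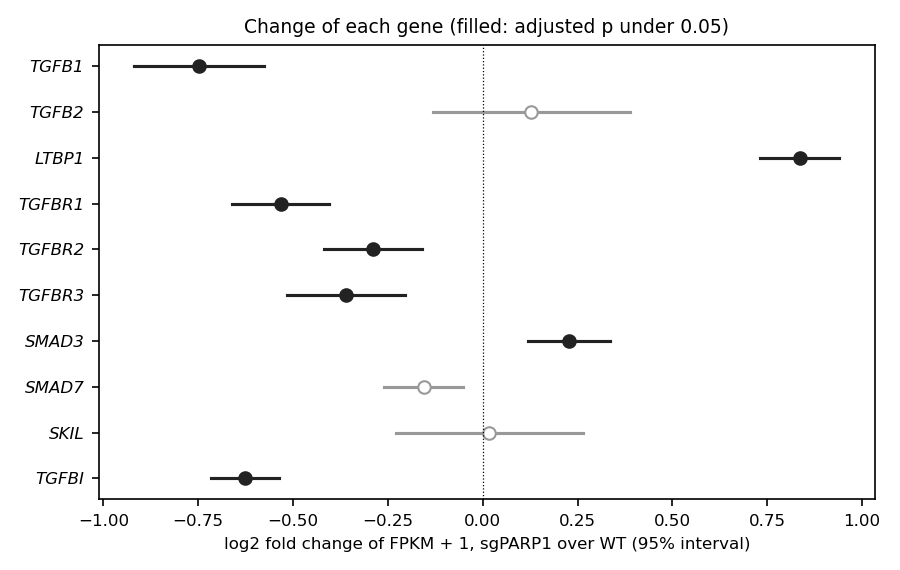
Log2 fold change of FPKM + 1, sgPARP1 over WT, of each gene with its 95% interval from limma, not adjusted for the number of genes. Filled points passed at an adjusted p under 0.05: LTBP1 and SMAD3 lie to the right of 0, and TGFB1, TGFBR1, TGFBR2, TGFBR3 and TGFBI to the left.

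The levels of the 10 genes, compared per length in FPKM, spanned from 37.2 FPKM for TGFB1 to 0.547 FPKM for TGFB2 in WT. In WT the order was TGFB1, TGFBI, SMAD3, TGFBR1, SMAD7, LTBP1, TGFBR2, SKIL, TGFBR3 and TGFB2, and no neighbours in this order overlapped over the 3 libraries. In sgPARP1 the order was TGFB1, SMAD3, TGFBI, LTBP1, SMAD7, TGFBR1, TGFBR2, SKIL, TGFBR3 and TGFB2, and TGFBR2, at 4.40 to 4.75 FPKM, did not separate from SKIL, at 3.85 to 4.88 FPKM. LTBP1 thus stood below TGFBR1 and SMAD7 in WT and above both in sgPARP1. The 3 sgPARP1 values lay outside the 3 WT values in 9 of the 10 genes, 3 higher and 6 lower, where this held for 31.1% of all tested genes, 16.1% higher and 14.9% lower.

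Genes near the 10 on the chromosome gave a description of position. Of 107 tested genes that start within 1 Mb of 1 of the 10, 1 was higher and 5 were lower, or 5.61%, against 7.96% of all tested genes. Of the 39 around TGFB1, 3 passed, all lower (BLVRB, CIC and SHKBP1), and the median log2 fold change was −0.06. Of the 12 around TGFBR1, COL15A1, a collagen gene that starts 161 kb from TGFBR1, was at a log2 fold change of −0.999 and TBC1D2 at −0.85, both lower. Around SMAD3, DIS3L was higher, at 0.30. None of the 41 neighbours of TGFB2, LTBP1, TGFBR2, TGFBR3, SMAD7, SKIL or TGFBI passed limma, where 6 had an unadjusted p under 0.05 and voom called 1. Voom called 11.9% of all tested genes. The genes named in this paragraph were chosen after their values were seen.

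**Figure D4:**
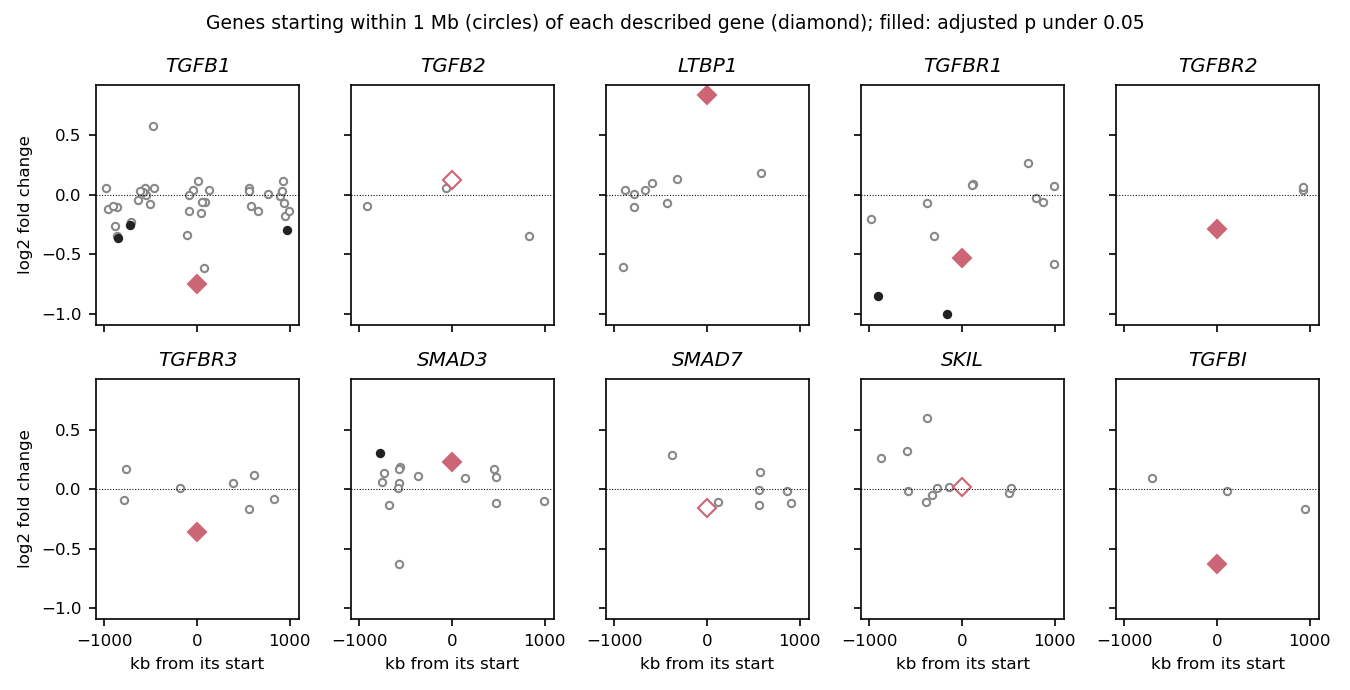
Log2 fold change of FPKM + 1 of tested genes (circles) by the distance of their start from that of each described gene (diamond), in kb, with filled symbols for an adjusted p under 0.05. COL15A1 and TBC1D2 beside TGFBR1, at −0.999 and −0.85, are the lowest filled circles.

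Of 47 tested genes for other ligands, latency factors, receptors, SMADs and their modulators, 3 were higher, 5 were lower and 39 did not pass, with a median log2 fold change of −0.0046. That is 17.0% called, beside 7.96% of all tested genes. Among 14 tested ligand, latency and activation genes, THBS1 rose and FURIN and DCN fell, or 21.4% beside 7.96% of all tested genes. THBS1 encodes thrombospondin 1, a matrix protein that can activate latent TGF-beta, and it went from 11.1 ± 0.22 to 23.9 ± 1.1 FPKM (mean ± SD, n = 3 each, here and below; log2 fold change 1.05, limma adjusted p = 0.000118). FURIN, the protease that cuts the ligand precursor from its propeptide, fell by 27.2%, from 47.0 ± 2.6 to 34.2 ± 1.0 FPKM. DCN encodes decorin, a proteoglycan that binds TGF-beta, and fell by 72.2%, from 1.07 ± 0.081 to 0.296 ± 0.070 FPKM. DCN is also 1 of the 8 stromal markers, of which LUM fell as well and COL1A1 and PDGFRB, both with higher means in sgPARP1, did not pass in limma. In voom on recovered reads PDGFRB passed (adjusted p = 0.0396).

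Among 9 tested receptor and co-receptor genes 1 was higher and 1 lower, or 22.2% beside 7.96%. BAMBI, a decoy receptor without a kinase domain, rose 1.34-fold, from 14.9 ± 0.32 to 20.0 ± 1.4 FPKM (adjusted p = 0.00982), and without WT replicate 2 its adjusted p was 0.0504. CD109, a co-receptor that dampens TGF-beta signalling, fell by 28.8%, from 10.6 ± 0.37 to 7.58 ± 0.75 FPKM (adjusted p = 0.0138). The adjusted p of CD109 was 0.0641 without WT replicate 2, 0.0519 without WT replicate 3 and 0.0624 without sgPARP1 replicate 1.

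Among 24 tested SMADs and SMAD modulators 1 was higher, 2 were lower and 21 did not pass, or 12.5% called beside 7.96%. DAB2, an adaptor that links the receptors to SMAD proteins, rose 1.38-fold, from 14.7 ± 0.40 to 20.3 ± 1.1 FPKM (limma adjusted p = 0.00432). PMEPA1, a target that inhibits SMAD activation, fell by 24.3%, from 8.48 ± 0.73 to 6.41 ± 0.48 FPKM (adjusted p = 0.0374), and SMURF2, the ubiquitin ligase that SMAD7 brings to the receptor, fell by 19.0%, from 4.39 ± 0.077 to 3.56 ± 0.19 FPKM (adjusted p = 0.0405). Both calls were lost when any 1 library was left out, at adjusted p of 0.0621 to 0.102 for PMEPA1 and 0.0555 to 0.131 for SMURF2, and with no filter on low values (0.0952 and 0.0839). With TPM the adjusted p of SMURF2 was 0.0515. The partners of SMAD3 did not pass: SMAD2 was at 4.39 FPKM in WT and 4.23 FPKM in sgPARP1, and SMAD4 at 4.07 and 4.36 FPKM.

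Genes that TGF-beta is known to regulate in other cells moved in both directions. Of 40 listed, 31 were tested, 8 were higher, 10 were lower and 13 did not pass, with a median log2 fold change of −0.10. That is 58.1% called, beside 7.96% of all tested genes, but many of these genes also answer to other signals and the list was drawn up with results of these data known. CCN2, the connective tissue growth factor, rose from 10.3 ± 0.092 to 26.4 ± 3.0 FPKM (log2 fold change 1.27, limma adjusted p = 0.000434). The actin-binding protein gene TAGLN rose from 1.35 ± 0.16 to 4.19 ± 0.33 FPKM (adjusted p = 0.000607), and THBS1, counted here too, rose as given above. The integrin gene ITGA5 fell from 8.93 ± 0.38 to 3.68 ± 0.27 FPKM (adjusted p = 0.000265).

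Several known TGF-beta targets, named here after their values were seen, did not move as 1 group. JUNB was lower, at a log2 fold change of −0.33, as was KLF10, also called TGF-beta-inducible early gene, at −0.29. CDKN2B, the cell cycle inhibitor p15, was higher at 0.30, and COL1A1 was at 0.07 and did not pass. Because 1 is added to each FPKM before the log2, these values come out too small for weakly expressed genes.

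**Figure D5:**
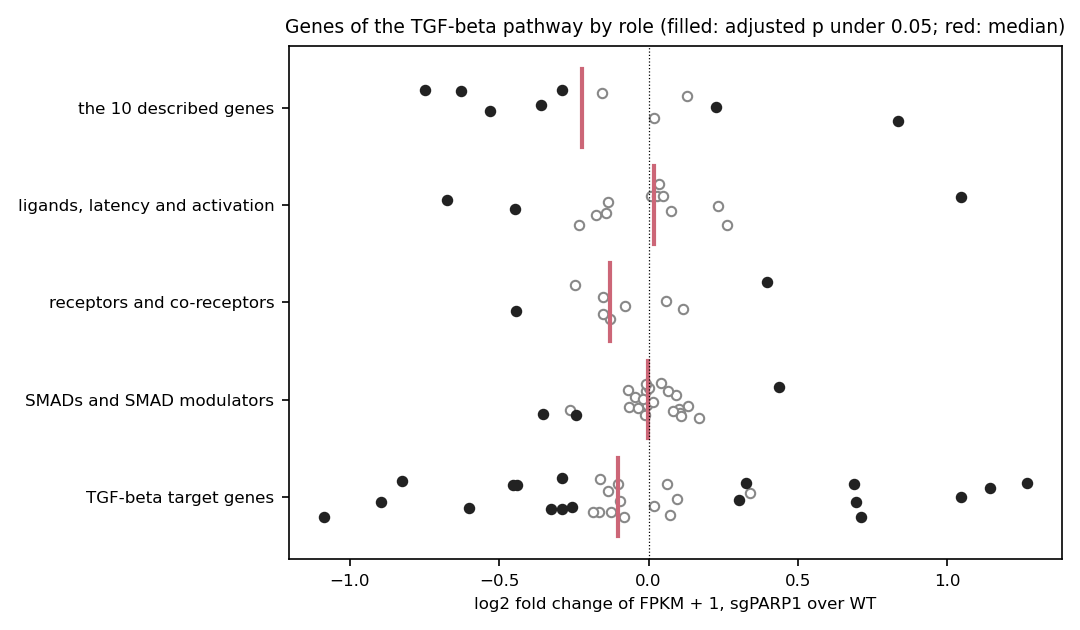
Log2 fold change of FPKM + 1, sgPARP1 over WT, of the tested genes of each role, with filled points for an adjusted p under 0.05 and a red line for the median. The medians are −0.22 for the 10 described genes, 0.02 for ligands, latency and activation, −0.13 for receptors and co-receptors, −0.0011 for SMADs and their modulators and −0.10 for target genes.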

How the data were processed

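The authors deposited a table of FPKM per gene for the 6 libraries, with Ensembl gene IDs, symbols, coordinates and gene lengths. Per the labels' protocols, the library kit selects messenger RNA. Human and mouse builds (hg38, GRCm38, mm10) are named in the submitters' processing notes without a role. The gene starts of the table meet RefSeq starts of GRCh38 for 6 of the 10 genes, so coordinates are given as hg38. For aligner, counting tool and strand setting: not given in the sources used here. Groups and replicate numbers were read from the titles.

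Genes whose mean over the 6 libraries reached 0.5 FPKM were tested. After adding a pseudocount of 1 and taking log2, limma 3.58.1 under R 4.3.3 fitted its moderated test (trend on), and p-values were adjusted by Benjamini-Hochberg over every tested gene, with 0.05 as threshold. Standard errors and 95% intervals are limma's. Percent changes and fold values are ratios of mean FPKM. FPKM times length fell on whole reads within 0.02 for 100% of values of up to 200 reads, which gave the read numbers. Alternatives were pseudocounts of 0.1 and 0.5, no filter, TPM, median-ratio size factors, voom on the recovered reads, the replicate number as a block, and each library left out.

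The 10 genes, the lists and the tests were chosen with earlier results of these data known. Named genes were the 10, then from each list up to 4 past the test with the largest absolute log2 fold change, and exceptions are stated where they stand. Some values of listed genes are not reported here. Motifs were matched in RefSeq promoter windows of GRCh38.p14. A planned comparison of protein sequences was not analysed here.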

Additional observations from a re-analysis of the deposited data

How the results depend on the processing

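TGFB1, TGFBI, TGFBR1 and LTBP1 passed in the reported setting and in all 13 alternatives, with log2 fold changes of −0.79 to −0.68, −0.67 to −0.60, −0.61 to −0.49 and 0.81 to 0.93. TGFB2, SMAD7 and SKIL passed in none. TGFBR2, TGFBR3 and SMAD3 kept their calls with both other pseudocounts, TPM and median-ratio size factors. They also kept them in voom, at adjusted p = 0.00576, 0.00207 and 0.00852. Their calls were lost in 7, 7 and 8 of the 13 alternatives. SKIL lay between −0.070 and 0.10 as single libraries were left out, and was below 0 without WT replicate 1 (−0.070), sgPARP1 replicate 2 (−0.040) or sgPARP1 replicate 3 (−0.0072). With no filter on low values, which adds genes to the adjustment, the counts called were 587 of 28336 genes, 4 of the 10 genes and 3 of their neighbours. Voom on recovered reads called more of all tested genes, 1561 of 13167, or 11.9%. It called 13 of the 47 other signalling genes, 10 of the 107 neighbours and 7 of the 10 genes, the last being the same count as in the main test. Leaving out 1 library gave 412 to 652 of all genes, 4 to 6 of the 10 genes, 4 to 6 other signalling genes, 12 to 14 targets and 3 to 5 neighbours. No sign of pairing by replicate number was seen, which does not exclude it. Correlations of same-numbered deviations were 0.0408, 0.0813 and −0.0262, and those of unlike numbers ran from −0.101 to 0.0642. A replicate block called 550 of all genes and 4 of the 10, TGFBR2, TGFBR3 and SMAD3 being at adjusted p of 0.0737, 0.0627 and 0.0648. TGFB2 had 38 to 71 reads per library, and what limits its test was not tested.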
